A study of Mus musculus with 6 samples.

Results

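The regions described here are the 957 ATAC-seq peaks, of 175929 in the deposited mm10 table, whose repeat annotation names a long terminal repeat (LTR) element of the ERV1 class and that lie in an intron or between genes. ATAC-seq marks open chromatin through the insertion of adapters by a transposase. Membership follows from the annotation column of the table. The ERV1 peaks carried 94 repeat names, of which 21 had a single peak. The 10 most frequent names held 457 peaks (47.8%). Of the members, 758 were annotated as LTRs and 199 as internal proviral sequence, whose names end in "-int".

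ERV1 is the class I group of endogenous retroviruses, relatives of the gammaretroviruses that entered the germ line and were copied into many places. An intact provirus has an internal region with the viral genes between a pair of LTRs, and recombination between the LTRs often leaves a solo LTR behind. The LTR holds the promoter and enhancer, so that it can bind the transcription factors of its host cell. In most mouse cells such elements are kept silent by KRAB zinc finger proteins, TRIM28, SETDB1 and DNA methylation. The class includes proviruses related to murine leukaemia virus and the VL30 elements, and transcripts of such elements are a known source of nucleic acids that start an interferon response.

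Both groups of libraries came from leukaemia cells of the genotype Usp18+/f with UBCER-Cre, a Cre recombinase fused to the oestrogen receptor, expressed from the ubiquitin C promoter and switched on by tamoxifen. The cells carried AE9a, a truncated AML1/ETO fusion that causes acute myeloid leukaemia in mice, with a GFP marker. They were transplanted into recipient mice, which received oil or tamoxifen once ill, and GFP+ Lin- c-Kit+ cells were sorted from the spleen 3 days after the first injection. Cre was to delete the floxed copy of Usp18, whose product is the protease for ISG15 conjugates and a brake on the type I interferon receptor, in the tamoxifen group. Tamoxifen was given to that group alone, so the drug and the loss of the allele cannot be told apart. Replicates 1, 2 and 4 had been given oil, and replicates 1, 3 and 4 tamoxifen. The study's methods describe cells sorted from separate mice of each treatment, with ATAC-seq of such a set, but the labels do not tie a library to a mouse. If libraries shared a mouse, part of the spread behind the p-values would be technical.

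Tags mapped ran from 57.4 to 74.7 M per library, of which 17.5 to 21.1 M fell in peaks, where 1 tag is a read pair with each mate counted as 0.5. The closest pair, oil 1 and oil 2, differed only slightly more than sampling noise over all peaks (chi-square 1.03 for each degree of freedom). With so many peaks even this small excess gave a chi-square p = 2.97e-23. Over the ERV1 peaks alone they did not differ measurably (1.01). Pairs of tamoxifen libraries stood at 1.48 to 2.68 over all peaks. All libraries were kept apart, but these values do not show whether oil 1 and oil 2 came from separate mice. Tamoxifen 4 stood apart from its group. Across all peaks, which are not independent points, its log2 tags correlated with those of the oil libraries at r = 0.959 to 0.963 and with those of tamoxifen 1 and 3 at 0.948 and 0.949. Results are therefore given with and without tamoxifen 4. Since it was singled out for its likeness to the oil libraries, leaving it out favours larger differences between the groups. The peak nearest the Usp18 start had 438 ± 21.8 normalised tags in the oil group and 449 ± 17.0 in the tamoxifen group (SD, n = 3), but it was not matched to the deleted segment and does not check the deletion. The peak nearest the start of Kit, the sorted marker, held 757 ± 9.06 and 787 ± 60.8 (SD, n = 3), whereas that of Cd34, a marker of immature cells, held 94.6 ± 21.8 and 269.9 ± 60.5 (log2 1.50, DESeq2 adjusted p = 8.32e-12). Of the other leukaemia blast genes listed, Flt3 stood at log2 0.73 (DESeq2 adjusted p = 0.0519) and Mpo at 0.39. Gata2 and Runx1 stood at 0.09, Spi1 at -0.04 and Myb at -0.07, and Cd33 and Ptprc had no such peak. Summed over its peaks, the blast list held 10.4 to 10.5 k normalised tags after oil and 10.3 to 11.4 k after tamoxifen. Of the marker genes of other cells, 3 of 7 T cell, 3 of 6 B cell, 7 of 7 erythroid and 3 of 8 mature myeloid genes had a peak within 3000 bp of their start, and Cd4, Cd8a, Ms4a1, Pax5, Ly6g, Csf1r and S100a8 had none. Summed over its peaks, the erythroid list held 5.76 to 6.03 k normalised tags after oil and 5.33 to 5.57 k after tamoxifen. The other lists overlapped between the groups, at 0.440 to 0.568 k and 0.430 to 0.485 k for T cells, 0.733 to 0.833 k and 0.711 to 0.886 k for B cells and 0.197 to 0.221 k and 0.198 to 0.211 k for mature myeloid cells. The part of the erythroid and Cd34 differences in the results was not tested.

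The sequences that carry the main results are given here, read from the mm10 assembly of RefSeq (GRCm38.p6). The first set shows the part of LTRIS4 LTRs in which the letters TGTGGT, the core bound by RUNX factors such as the AML1 part of the fusion, are followed by TTCNNNGAA, a STAT site. LTRIS4 is the repeat name with the largest change described below, and capitals mark both motifs.
LTRIS4 chrX:15598599-15598640 (+): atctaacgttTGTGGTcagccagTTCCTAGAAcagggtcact
LTRIS4 chr17:34825368-34825409 (-): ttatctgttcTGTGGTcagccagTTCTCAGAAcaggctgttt
LTRIS4 chr2:84794022-84794063 (-): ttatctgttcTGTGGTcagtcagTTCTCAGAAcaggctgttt
LTRIS4 chr17:34887807-34887848 (+): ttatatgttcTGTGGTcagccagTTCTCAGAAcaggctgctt
These 4 of the 6 LTRIS4 peaks held the pair with a gap of 7 bases between the motifs.

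The second set shows 3 whole LTR peaks that were called more open after tamoxifen and the 1 that was called less open, at most their central 300 bases. Capitals mark every match to a panel of 12 motifs that is spelled out further below.
LTRIS4 chrX:15598455-15598730 (+): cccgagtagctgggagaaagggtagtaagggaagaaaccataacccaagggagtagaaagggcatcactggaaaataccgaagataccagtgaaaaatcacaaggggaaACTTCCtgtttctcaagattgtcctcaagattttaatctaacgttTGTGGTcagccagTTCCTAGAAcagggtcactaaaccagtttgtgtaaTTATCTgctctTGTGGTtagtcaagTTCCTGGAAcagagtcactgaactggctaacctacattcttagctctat
RLTR23 chr1:133020152-133020451 (+): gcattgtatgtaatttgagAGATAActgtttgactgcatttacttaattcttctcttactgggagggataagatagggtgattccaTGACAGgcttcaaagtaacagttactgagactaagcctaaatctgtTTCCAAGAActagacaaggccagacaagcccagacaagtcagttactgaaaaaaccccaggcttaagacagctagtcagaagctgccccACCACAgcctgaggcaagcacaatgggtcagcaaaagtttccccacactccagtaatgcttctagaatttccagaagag
RLTR48A chr17:32108791-32109090 (+): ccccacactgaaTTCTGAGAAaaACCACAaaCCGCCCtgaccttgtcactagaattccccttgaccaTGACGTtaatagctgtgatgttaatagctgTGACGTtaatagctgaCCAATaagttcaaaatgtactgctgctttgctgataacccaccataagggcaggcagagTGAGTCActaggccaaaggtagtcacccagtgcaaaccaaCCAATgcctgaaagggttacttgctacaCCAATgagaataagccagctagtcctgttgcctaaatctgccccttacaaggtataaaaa
RLTR14_RN chr13:6065636-6065848 (+): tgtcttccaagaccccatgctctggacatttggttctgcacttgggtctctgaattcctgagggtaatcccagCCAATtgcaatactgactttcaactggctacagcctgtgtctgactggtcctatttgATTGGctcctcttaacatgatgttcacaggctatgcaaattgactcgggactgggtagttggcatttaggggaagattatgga

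The third set shows the stretch shared by copies of 4 LTR names that held 1 motif far more often than other peaks. Capitals mark the central match of each stretch, to CCAAT, the site of NF-Y, or to AGATAA, the site of GATA factors. Further matches in the flanks, on either strand, are left in lower case.
RLTR41 chr8:84653321-84653355 (+): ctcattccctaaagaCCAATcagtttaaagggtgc
RLTR41 chr10:91189111-91189145 (+): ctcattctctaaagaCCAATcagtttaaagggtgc
RLTR41 chr10:45064219-45064253 (-): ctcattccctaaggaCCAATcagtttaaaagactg
RMER2 chr8:110918646-110918680 (-): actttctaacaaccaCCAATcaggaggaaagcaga
RMER2 chr1:74308771-74308805 (-): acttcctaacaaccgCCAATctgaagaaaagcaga
RMER2 chr1:53728113-53728147 (+): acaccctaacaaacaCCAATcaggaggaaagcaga
RLTR30D2_MM chr12:77134535-77134570 (-): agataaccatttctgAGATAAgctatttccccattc
RLTR30D2_MM chr16:13420014-13420049 (+): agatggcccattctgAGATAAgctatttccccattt
RLTR30D2_MM chr10:117409577-117409612 (+): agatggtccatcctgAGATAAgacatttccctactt
RLTR14_RN chr10:111580935-111580970 (-): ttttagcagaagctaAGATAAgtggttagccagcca
RLTR14_RN chr11:33939962-33939997 (-): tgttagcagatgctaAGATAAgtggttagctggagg
RLTR14_RN chr1:130374346-130374381 (-): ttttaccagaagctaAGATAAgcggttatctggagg
Among the 5 copies of each name with the most tags, pairs of copies shared a median of 25 of the 30 flanking bases in RLTR41, 24 in RMER2, 23 in RLTR30D2_MM and 21.5 in RLTR14_RN. Copies were included only if at least 20 of the 30 flanking bases matched 1 reference copy, so this likeness is partly set by the choice.

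The ERV1 peaks were small, distal sites. Their median width was 257 bp (201 to 881 bp) and their median GC content 47.8%, against 252 bp and 49.1% for all 140013 intron and intergenic peaks. Between genes lay 698 members and in introns 259, and 843 were more than 3000 bp from the nearest transcription start site (TSS). The median member held 42.2 normalised tags, with a middle range of 27.9 to 78.6 tags, close to the 45.6 of all intron and intergenic peaks. Members within 10000 bp of each other were joined into 856 loci, of which 780 held a single peak and 5 held at least 4. The study called peaks in each group and merged the lists, and 639 members came from both lists, 191 from the oil list alone and 127 from the tamoxifen list alone. For comparison, the series held 3348 peaks in ERVK elements, the class of the intracisternal A particles, and 8119 in ERVL and MaLR elements.

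With all libraries kept, the class as a whole did not shift beyond the spread between libraries. ERV1 peaks took 0.354%, 0.351% and 0.362% of the tags in peaks in oil 1, 2 and 4, and 0.348%, 0.339% and 0.374% in tamoxifen 1, 3 and 4. The tamoxifen libraries held both the lowest and the highest share, and the highest was tamoxifen 4. The means were 0.356% ± 0.00594 after oil and 0.354% ± 0.0180 after tamoxifen (SD, n = 3, exact two-sided permutation p = 0.9, adjusted over 5 comparisons 0.9, with 0.1 the smallest p that 3 libraries against 3 allow). Without tamoxifen 4 the difference of the means was -0.0117 percentage points (exact permutation p = 0.2, the smallest that 3 against 2 libraries allow). Both remaining tamoxifen shares lay below every oil share, so this test stood at its limit and cannot decide whether the class shifted. The ratio of ERV1 to ERVK tags was 0.329 ± 0.00334 after oil and 0.337 ± 0.00126 after tamoxifen (SD, n = 3, exact permutation p = 0.1, adjusted 0.5), so that the groups did not overlap and the test stood at its limit.

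Over single peaks, 460 members had a positive and 497 a negative log2 fold change of tamoxifen over oil. The median was -0.02, with a middle range of -0.25 to 0.24, against -0.00 for all peaks, -0.06 for ERVK and -0.01 for ERVL and MaLR peaks. Internal proviral peaks had a median of 0.04 and LTR peaks one of -0.04. The groups did not overlap at 252 members (26.3%), 128 higher and 124 lower, against 21.9% of all peaks.

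Calls rest on a DESeq2 fit of all 175929 peaks, and need a change of more than 2-fold with an adjusted p below 0.05. By this rule 13 ERV1 peaks were called (1.36%), against 0.654% of all peaks. Of these, 12 were higher after tamoxifen (1.25%, against 0.588% of all peaks) and 1 was lower (0.104%, against 0.0659%). At an adjusted p under 0.05 and any fold, 18 members rose and 3 fell, together 2.19% against 1.39% of all peaks. The share called was 1.02% among ERVK, 1.15% among ERVL and MaLR and 0.731% among all intron and intergenic peaks. The 13 calls lay in 12 loci. Of the 12 higher calls, 8 were on both peak lists and 4 on the tamoxifen list alone, and the lower call was on the oil list alone. A peak found in a single list entered the table through the group in which it is likely to be high, which favours a difference in that direction. Among members on both lists 8 were called (1.25%), all higher, against 0.5% of all peaks on both lists. Leaving out 1 library moved the count of 13 to 9 without oil 1, 7 without oil 2, 7 without oil 4, 8 without tamoxifen 1 and 5 without tamoxifen 3. In these omissions DESeq2 assigned no adjusted p to 158, 343, 245, 173 and 219 members, in the same order. Such members could not be called, and the share of all peaks called was not counted for these omissions. Without tamoxifen 4 the count was 30 (22 higher and 8 lower, 3.13%), which included all 13, against 1.54% of all peaks.

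**Figure D1:**
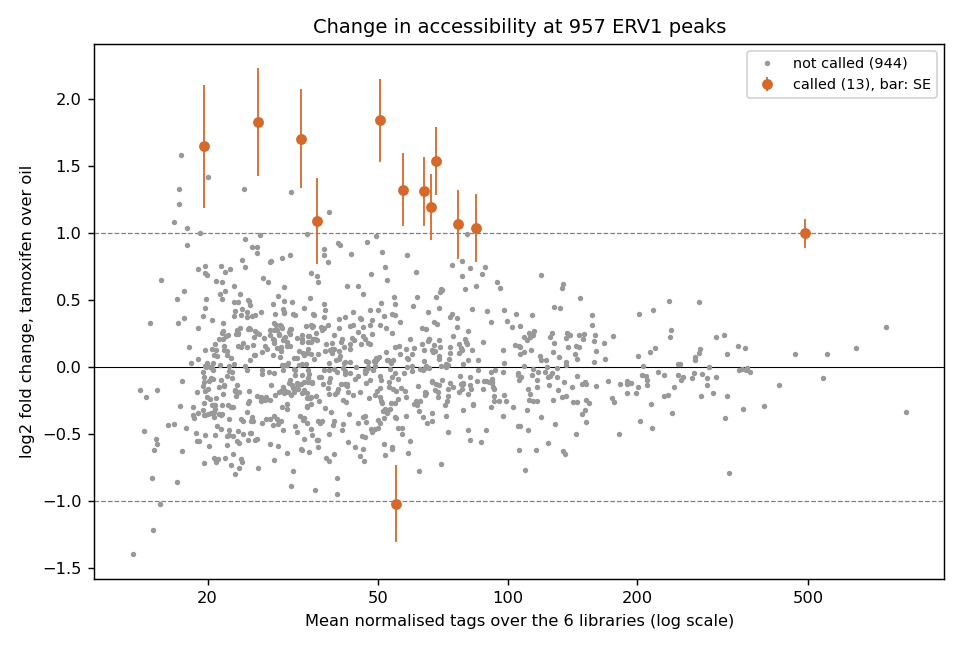
Each point is 1 of the 957 ERV1 peaks, with its mean normalised tags over the 6 libraries on a log scale and its log2 fold change of tamoxifen over oil. The 13 called peaks are in orange with SE bars, 12 above and 1 below 0, and the dashed lines mark a fold of 2.

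The call with the most tags was a MER89 LTR between genes, at chr9:115708563-115708911 and far from any TSS (nearest Gadl1, a glutamate decarboxylase-like enzyme). It held 301, 341 and 340.5 normalised tags in oil 1, 2 and 4, and 634, 741 and 594 in tamoxifen 1, 3 and 4. Each tamoxifen library lay well above each oil library. The log2 fold change was 1.00 ± 0.11 (SE, DESeq2 adjusted p = 4.41e-16), just past the fold limit. In the edgeR fit it was just short of that limit (adjusted p = 5.69e-06). Just outside the limit lay an RLTR1D LTR on chromosome 18 with 54.1 ± 6.41 and 107 ± 17.6 tags (SD, n = 3) and a log2 fold change of 0.99.

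An RLTR23 LTR in intron 1 of Mdm4, which encodes an inhibitor of p53, lay at chr1:133020123-133020480, 5115 bp from the TSS. It held 24.3, 39.5 and 40.3 tags after oil and 96.7, 89.7 and 117 after tamoxifen. The groups were wide apart, and here tamoxifen 4 was the highest library. The log2 fold change was 1.54 ± 0.26 (SE, DESeq2 adjusted p = 2.02e-06). An RLTR1B LTR in intron 1 of Fdft1, which encodes squalene synthase of the cholesterol pathway, lay at chr14:63171009-63171281. It held 35.3, 36.6 and 48.8 tags after oil and 90.4, 98.0 and 89.4 after tamoxifen, with no overlap. Its log2 fold change was 1.20 ± 0.24 (SE, DESeq2 adjusted p = 0.000321).

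An LTRIS4 LTR on chromosome X, printed above, held 26.5, 25.4 and 14.3 tags after oil and 85.5, 89.1 and 61.0 after tamoxifen. Its log2 fold change of 1.84 ± 0.31 (SE, DESeq2 adjusted p = 2.17e-06) was the largest of the 13 calls. An internal MuRRS4-int stretch at chr10:51528942-51529167 was nearest to Lilrb4a, an inhibitory receptor of myeloid cells. It held 32.5, 31.7 and 45.2 tags after oil and 79.7, 108 and 85.7 after tamoxifen, with a log2 fold change of 1.31 ± 0.26 (SE, DESeq2 adjusted p = 0.000164). Both peaks were higher in each tamoxifen library than in any oil library.

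The RLTR48A LTR at chr17:32108782-32109099, printed above, held 29.8, 35.6 and 32.3 tags after oil and 73.9, 101 and 69.8 after tamoxifen. Its log2 fold change was 1.33 ± 0.27 (SE, DESeq2 adjusted p = 0.000359). A MERV1_LTR peak at chr16:57030194-57030461 held 20.4, 15.6 and 11.2 tags after oil and 52.2, 60.7 and 37.7 after tamoxifen, a log2 fold change of 1.71 ± 0.37 (SE, DESeq2 adjusted p = 0.00110). Adjacent internal sequence of the same element, MERV1_I-int at chr16:57030588-57030873, was also called, with 23.2, 24.4 and 21.5 tags after oil and 47.4, 53.5 and 46.1 after tamoxifen (log2 1.09 ± 0.32, SE, DESeq2 adjusted p = 0.0470). Both the LTR and the sequence beside it were thus more open in every tamoxifen library. A MER57C2 LTR in intron 7 of Stx8, which encodes a SNARE protein of endosomes, lay at chr11:68176580-68176860. It held 12.7, 14.1 and 8.06 tags after oil and 43.5, 44.0 and 34.9 after tamoxifen, a log2 fold change of 1.83 ± 0.40 (SE, DESeq2 adjusted p = 0.00129). Both MERV1 peaks and the MER57C2 peak entered the table through the tamoxifen list alone, so their differences carry the limit given above.

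The remaining calls were named after their values were seen. They were an RLTR24 LTR upstream of Olfm1 (log2 1.04), an RLTR30D2_MM LTR nearest to Crlf2 and an RLTR4_MM-int peak in an intron of Camk2b described below. Crlf2 encodes a chain of the thymic stromal lymphopoietin receptor. The peak nearest to it was faint, with 11.0, 8.78 and 8.51 tags after oil and 30.0, 37.3 and 21.9 after tamoxifen (log2 1.65, DESeq2 adjusted p = 0.0292). The last call on the tamoxifen list alone was among these remaining calls and carries the same limit. Tamoxifen 3 was the highest tamoxifen library at 10 of the 12 members called higher, and tamoxifen 4 the lowest at 10 of 12.

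The only member called lower was an RLTR14_RN LTR at chr13:6065636-6065848, between genes and nearest to Klf6, a zinc finger transcription factor. It was on the oil list alone, the group in which it was high. It held 75.0, 69.7 and 77.5 tags after oil and 29.0, 25.6 and 53.5 after tamoxifen, so that tamoxifen 4 lay between the other tamoxifen libraries and the oil group. The log2 fold change was -1.02 ± 0.29 (SE, DESeq2 adjusted p = 0.0331). Without tamoxifen 4 it was -1.44 (adjusted p = 0.000404). With all libraries, a pair of further LTRs fell without reaching the fold limit. A MER31A LTR upstream of Slc35g2 held 429, 428 and 392 tags after oil and 227, 181 and 312 after tamoxifen (log2 -0.79, DESeq2 adjusted p = 0.0446). Without tamoxifen 4 it passed the fold limit, at -1.02 (adjusted p = 1.48e-11). An RLTR14 LTR near Dnajb1, which encodes an HSP40 co-chaperone, held 156, 159 and 183 and then 109, 93.6 and 115 (log2 -0.65, adjusted p = 0.0168).

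Of the 9 calls named by rule, all 9 stayed called without tamoxifen 4 and 4 without tamoxifen 3, where 1 had no adjusted p. The omission of tamoxifen 4, singled out for its likeness to the oil group, is not an independent check of these calls. Over all single-library omissions that gave an adjusted p, the DESeq2 adjusted p stayed at or below 0.00210 for LTRIS4, 0.00159 for RLTR23, 0.0237 for RLTR1B and 0.0351 for MuRRS4-int. It reached 0.0677 for RLTR48A, 0.0921 for MERV1_LTR and 0.497 for RLTR14_RN, which kept its call only without tamoxifen 4. MER57C2 lost its call without oil 4 (adjusted p = 0.0651) and was assigned no adjusted p by DESeq2 in 3 of the 6 omissions. MER89 stayed at or below 1.69e-09 but dropped under the fold limit without oil 1 (log2 0.94) and without tamoxifen 3 (log2 0.91).

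**Figure D2:**
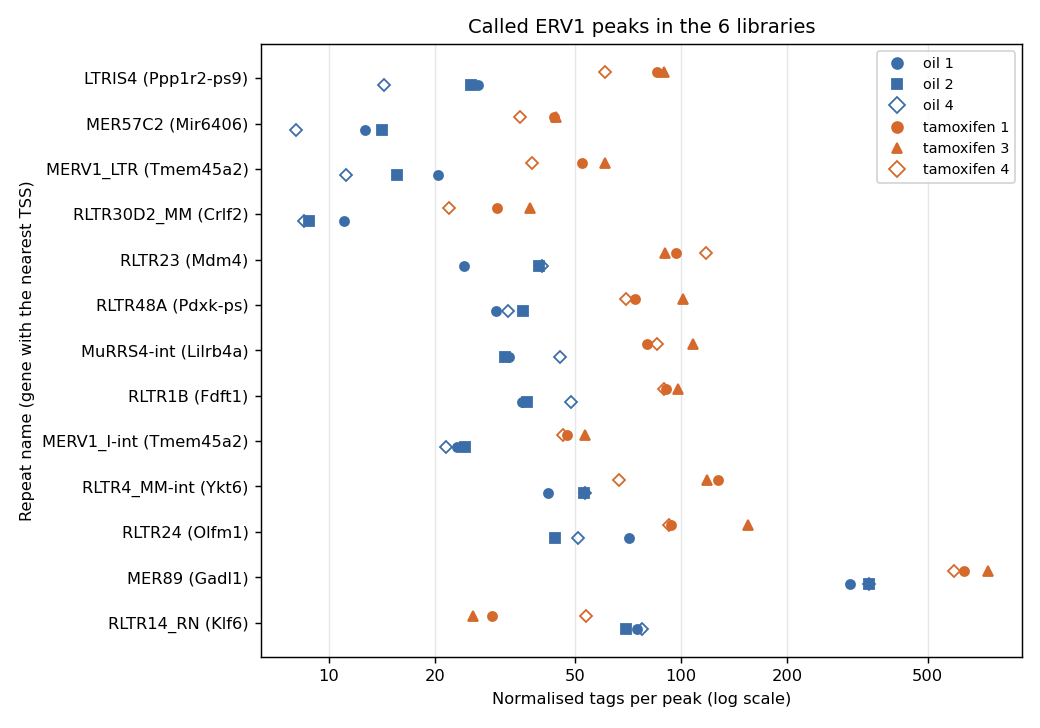
Each row is 1 of the 13 called ERV1 peaks, named by its repeat and by the gene with the nearest TSS, and each symbol is the normalised tags in 1 library on a log axis (blue oil, orange tamoxifen, open diamonds replicate 4). In the 12 upper rows every orange symbol lies to the right of every blue one, and in the RLTR14_RN row to the left.

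Tags were next summed over all peaks of a repeat name and 747 names with at least 3 intron or intergenic peaks were fitted together. Of 64 ERV1 names, 5 changed at an adjusted p under 0.05 (7.81%), against 4.69% of all names, and all 5 were higher after tamoxifen. These were LTRIS4, RLTR48A, MER89, MuRRS-int and RLTR4_MM-int. Among the others, RMER21A (log2 -0.16 ± 0.07, SE, DESeq2 adjusted p = 0.163), RodERV21-int (log2 -0.17 ± 0.07, SE, adjusted p = 0.130) and RLTR23 (log2 0.29 ± 0.10, SE, adjusted p = 0.0622) did not pass. Leaving out 1 library gave 3 names without oil 1, 2 without oil 2, 4 without oil 4, 3 without tamoxifen 1 and 3 without tamoxifen 3. RLTR48A and MER89 passed in each of these omissions. RLTR4_MM-int passed in none of them (DESeq2 adjusted p = 0.0594 to 0.155), and MuRRS-int only without oil 4 (adjusted p = 0.0464). Without oil 2, however, DESeq2 assigned no adjusted p to 35 ERV1 names. LTRIS4 was among these, at a log2 fold change of 0.70, and so was not assessed there.

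Without tamoxifen 4, 19 of the 64 names changed (29.7%), against 19.1% of all names. They comprised the same 5 names, 4 more that rose and 10 that fell. The 4 were MERV1_LTR, RLTR48C, RLTR4_Mm and MMERGLN-int. Among the 10 were RMER5 (log2 -0.19), RMER21A (log2 -0.23), RodERV21-int (log2 -0.22), RLTR14_RN (log2 -0.27), MER31A (log2 -0.31) and MER67A (log2 -0.68). In this comparison of 3 oil with 2 tamoxifen libraries names thus moved in both directions.

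LTRIS4 changed most. Its 6 peaks summed to 238, 238 and 235 normalised tags in the oil libraries and to 385, 415 and 355 in the tamoxifen libraries, a log2 fold change of 0.70 ± 0.12 (SE, DESeq2 adjusted p = 1.18e-06), and the oil values were tight. Without the chromosome X copy the name still stood at 0.51 (adjusted p = 0.00401). Of the 6 copies, 5 were higher in every tamoxifen library than in any oil library, a pattern that 11.9% of all peaks showed. A copy at -1977 bp from the C4a TSS held 17.6, 15.1 and 20.6 tags after oil and 36.2, 68.0 and 30.3 after tamoxifen (log2 1.31 ± 0.39, SE, adjusted p = 0.0515). C4a, or sex-limited protein, is a mouse complement gene known for an androgen-responsive enhancer in a proviral LTR upstream of it. A copy at -5663 bp from C2, another complement gene of the same cluster, had a log2 fold change of 0.61 ± 0.30 (SE, adjusted p = 0.511). A copy at -4767 bp from Ube2l6, which encodes the conjugating enzyme for ISG15, held 98.2, 95.6 and 77.5 tags after oil and 109, 121 and 127 after tamoxifen (log2 0.40 ± 0.19, SE, adjusted p = 0.494). The 4 copies with the RUNX and STAT pair printed above stood at log2 fold changes of 1.84, 1.31, 0.61 and 0.40, and the 2 without it at 0.52 and -0.34. With only 6 copies this was not tested.

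For the other 4 names the summed change was smaller, and for MER89 and RLTR4_MM-int it rested on 1 locus. RLTR48A summed to 898, 837 and 903 tags after oil and 1095, 1208 and 1099 after tamoxifen over 13 peaks (log2 0.37 ± 0.07, SE, DESeq2 adjusted p = 0.000104), with no overlap. Without its strongest locus it stood at 0.31 (adjusted p = 0.00262). Its copies did not all move 1 way, since 10 of 13 had a positive change, and 1 upstream of Creg1 held 22.6, 20.0 and 16.6 tags after oil but 2.42, 6.13 and 12.6 after tamoxifen (log2 -1.40, adjusted p = 0.334). MER89 (log2 0.33 ± 0.07, SE, adjusted p = 0.000200) rested on the 1 called peak, and stood at -0.00 without it (adjusted p = 0.996). MuRRS-int was higher over 12 of 14 peaks (log2 0.27 ± 0.07, SE, adjusted p = 0.00346) and stood at 0.25 without its strongest locus (adjusted p = 0.0208). Its peak with the smallest p, nearest to Tram1, held 72.8, 66.8 and 59.6 tags after oil and 115, 111 and 106 after tamoxifen (log2 0.75, adjusted p = 0.0270).

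**Figure D3:**
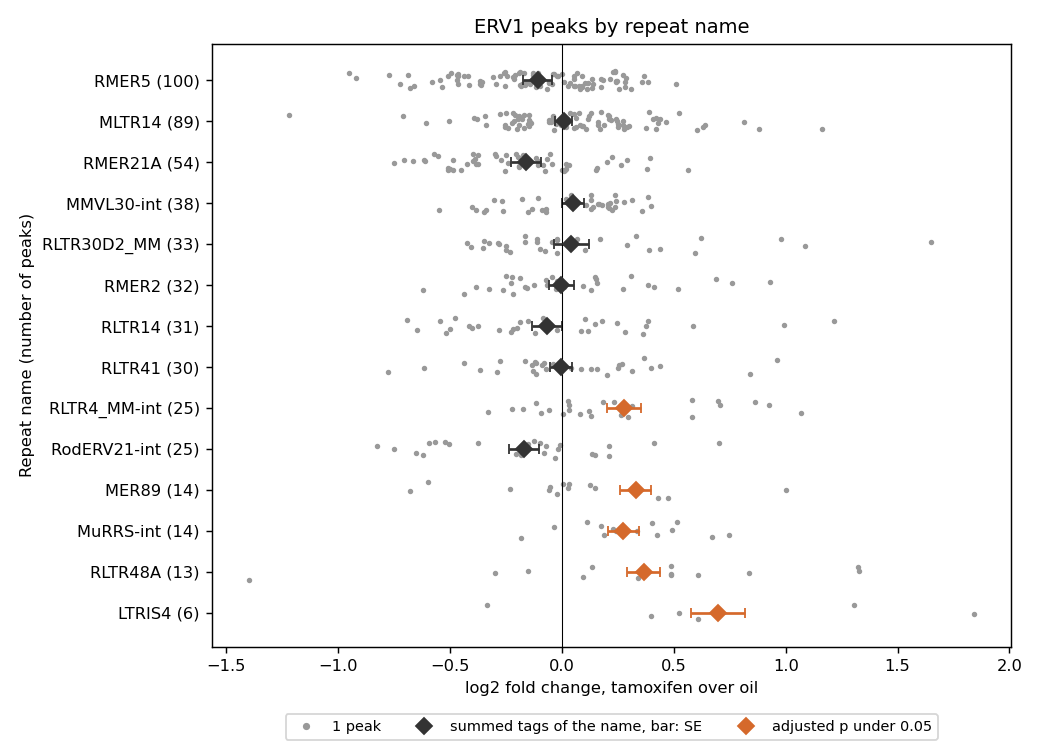
Grey points are single peaks of the 10 most frequent ERV1 names and the 4 further names that changed, at their log2 fold change of tamoxifen over oil. Diamonds are the change of the summed tags with SE, in orange at an adjusted p under 0.05, and run from -0.17 for RodERV21-int to 0.70 for LTRIS4.

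RLTR4_MM-int, the internal region of a provirus related to murine leukaemia virus, changed in sum (log2 0.28 ± 0.08, SE, DESeq2 adjusted p = 0.0100) through 1 locus. Without it the name stood at 0.04 (adjusted p = 0.836). This locus, the largest among the members, had 8 peaks over 4220 bp in intron 3 of Camk2b, which encodes a calmodulin-dependent kinase subunit, at chr11:6006432-6010651. Its peaks summed to 461, 466 and 532 tags in oil 1, 2 and 4 and to 877, 821 and 583 in tamoxifen 1, 3 and 4. All 3 tamoxifen libraries lay above the oil libraries, and tamoxifen 4 was the nearest to them. The means were 486 ± 39.4 and 761 ± 156 (SD, n = 3, exact two-sided permutation p = 0.1, the smallest possible). All 8 peaks had a positive log2 fold change, 0.31 to 1.07 with a median of 0.70, and 7 had an unadjusted p under 0.05, but only the peak at chr11:6010242-6010651 was called (log2 1.07 ± 0.26, SE, adjusted p = 0.00572). Without tamoxifen 4, 3 peaks of the locus were called.

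The peaks around the locus were examined after these values were seen. Of 26 peaks within 30 kb that were not ERV1, 22 also had a positive log2 fold change, with a median of 0.39, and 11 had an unadjusted p under 0.05. Among them, a peak in a B4A repeat held 78.2 ± 4.44 and 162 ± 56.6 tags (SD, n = 3, log2 1.05, DESeq2 adjusted p = 0.00129). It passed the rule for a call, as did those at chr11:6014045-6014393 (log2 1.05, adjusted p = 0.0158) and chr11:6011413-6011730 (log2 1.10, adjusted p = 0.0376). Higher values were therefore not limited to the proviral sequence. Young proviral copies are nearly identical, and the mapping used Bowtie2 at its defaults, so tags may be shared between copies and the value of a single internal peak is uncertain.

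**Figure D4:**
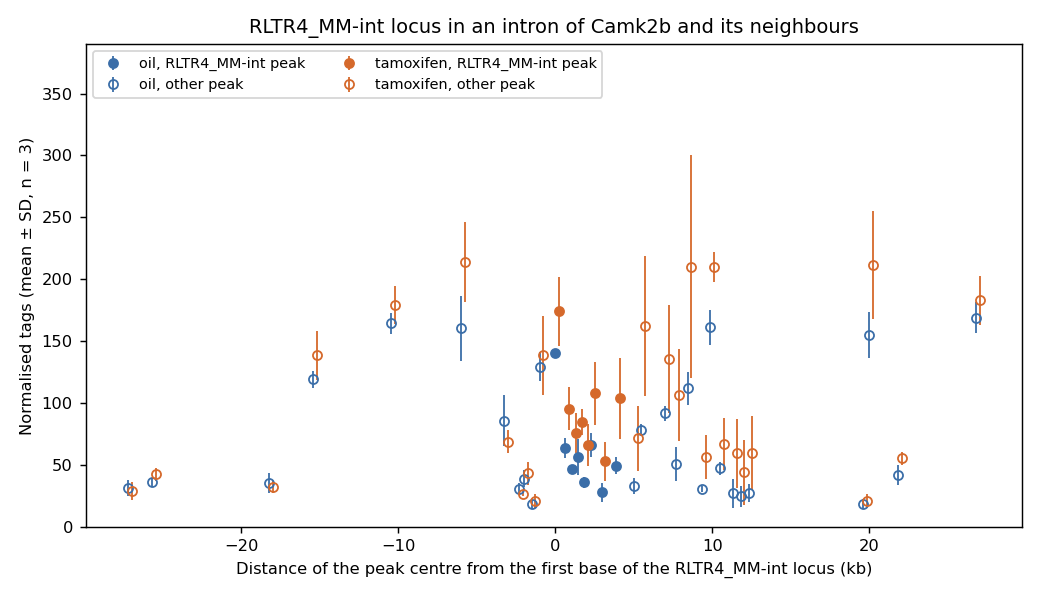
Normalised tags (mean ± SD, n = 3) of the 8 RLTR4_MM-int peaks in the Camk2b intron (filled) and of 26 other peaks within 30 kb (open), by distance from the start of the locus in kb. All 8 filled orange points lie above their filled blue partners, and so do 22 of the 26 open pairs.

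Among the other groups of at least 4 members none was higher in every tamoxifen library than in any oil library. The locus at chr15:74932083-74935506 near Ly6e, an interferon-induced surface protein, joined MERV1_I-int, RLTR48B, RLTR4_Mm and RLTR6-int peaks and summed to 388 ± 45.8 tags in the oil group and 423 ± 57.3 in the tamoxifen group (SD, n = 3, exact permutation p = 0.6). A locus of MMVL30-int, MMERGLN_LTR and RLTR6_Mm peaks near Hnrnpa3, at chr2:75634339-75642606, summed to 127 ± 19.7 and 120.2 ± 13.6 (SD, n = 3, exact permutation p = 0.6). The RLTR14-int locus near Adcy9 summed to 183 ± 5.78 and 178 ± 48.7 (SD, n = 3, exact permutation p = 0.8). The one near Wwp2 summed to 118 ± 7.63 and 98.5 ± 11.2 (SD, n = 3, exact permutation p = 0.1, the smallest possible). It was lower in every tamoxifen library than in any oil library, though only just, with 109.9 in tamoxifen 4 and 110.2 in oil 2. None of its peaks had an unadjusted p under 0.05.

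The most frequent names moved little in sum. RMER5, with 100 peaks, had a log2 fold change of -0.11 ± 0.06 (SE), with 39 of its peaks positive. MLTR14 with 89 peaks stood at 0.01 ± 0.04, RMER2 with 32 at -0.00 ± 0.06 and RLTR41 with 30 at -0.01 ± 0.05. MMVL30-int, the internal region of the VL30 elements, with 38 peaks in 31 loci, summed to 2289, 2234 and 2384 tags after oil and 2391, 2333 and 2428 after tamoxifen, a log2 fold change of 0.05 ± 0.05 (SE, DESeq2 adjusted p = 0.638), with overlap. RLTR30D2_MM with 33 peaks (0.04 ± 0.08) and RLTR14 with 31 (-0.07 ± 0.07) did not pass either. RMER21A, with 54 peaks, had 14 with a positive change and 16 whose tamoxifen values all lay below the oil values, a pattern that 10% of all peaks showed. Its summed change was given above and did not pass the test with all libraries.

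None of the 5 members with the most tags was called, but the groups did not overlap at 3 of them, as at 21.9% of all peaks. A MER67B LTR near Vwc2l, at chr1:70902343-70902705, had the most tags, 1010.4, 925 and 897 after oil and 708, 645 and 888 after tamoxifen. Each tamoxifen library lay below each oil library, but tamoxifen 4 only just (log2 -0.33 ± 0.10, SE, DESeq2 adjusted p = 0.0711), and without tamoxifen 4 it stood at -0.48 (adjusted p = 9.08e-06). An RLTR48C LTR in intron 23 of Pcnx2 held 719, 667 and 661 tags and then 858, 915 and 749 (log2 0.30 ± 0.09, SE, adjusted p = 0.0611), without overlap, and stood at 0.38 without tamoxifen 4 (adjusted p = 0.000698). An RLTR30E_MM LTR in an intron of Ip6k1, which encodes an inositol phosphate kinase, had 618 ± 33.1 and 680.3 ± 32.3 tags (SD, n = 3, log2 0.14, adjusted p = 0.708). An RLTR4_Mm LTR in intron 1 of Serinc3, a host gene whose product lowers the infectivity of retroviral particles, had 535 ± 7.56 and 574 ± 62.3 (SD, n = 3, log2 0.10, adjusted p = 0.904). The RLTR41 LTR near Ier2, an immediate early gene, had 557 ± 15.6 and 525 ± 4.12 (SD, n = 3, log2 -0.08, adjusted p = 0.922).

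The sequences of the members were searched for 12 motifs on both strands in the central 200 bp, in 955 of the 957 members and in 139885 intron and intergenic peaks with reference sequence. For AP-1, the site of stress-activated FOS and JUN factors, the letters were TGANTCA, and for GATA factors AGATAA. RUNX sites were searched as TGTGGT and sites of ETS factors as GGAAGT. For STAT factors, which interferon and cytokine receptors activate, they were TTCNNNGAA, and for the interferon-stimulated response element (ISRE) GAAANNGAAA. NF-Y sites were searched as CCAAT and MEIS sites as TGACAG. The E-box was CACGTG and the cyclic AMP response element (CRE) TGACGT. The GC box was GGGCGG, and NF-kB was searched by its usual consensus. Matches of different motifs may overlap. NF-Y letters were in 35.3% of ERV1 peaks against 21.1% of all intron and intergenic peaks, and GATA letters in 29.5% against 17.1%. STAT letters were in 8.48% against 5.02% and NF-kB letters in 8.27% against 4.57%. AP-1 letters (7.75% and 7.28%) and ETS letters (17.2% and 18.4%) were about as frequent in both, and RUNX letters were in 210 members against 20.4% of all intron and intergenic peaks. ISRE letters were less frequent, in 14 members (1.47% against 2.14%). In ERVK peaks the shares were 34.8% for NF-Y, 21.7% for GATA, 4.31% for STAT, 3.29% for NF-kB and 2.36% for ISRE letters. In ERVL and MaLR peaks they were 26.7%, 16.0%, 3.24%, 3.79% and 1.54%, in the same order. NF-Y letters were thus about as frequent in ERVK as in ERV1 peaks. Copies of a name descend from 1 sequence and are not independent, so these shares are given without a test.

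The motifs were concentrated in particular names. NF-Y letters were in 90.6% of RMER2, 83.3% of RLTR41 and 78.6% of RMER21B peaks. GATA letters were in 76.9% of RLTR1D, 65.2% of RLTR14_RN and 60.6% of RLTR30D2_MM peaks, but in 3.70% of RMER21A peaks. RLTR1D also held NF-kB letters in 61.5% and AP-1 letters in 38.5% of its 13 peaks, and RLTR14 and RLTR23 held STAT letters in 32.3% and 31.6%. RLTR48A, which rose in sum, held NF-Y letters in 53.8%, AP-1 and RUNX letters in 46.2% each and CRE letters in 23.1%, as its printed copy shows. The RUNX letters followed by STAT letters after 5 to 12 bases, a pattern searched for after the LTRIS4 sequence was seen, were in 5 of the 955 members and in 58 of all intron and intergenic peaks (0.0415%). Of these 5 members 4 were the LTRIS4 copies from which the pattern was taken, so that 1 other member held it.

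Members with and without a motif differed little in their change. The median log2 fold change was 0.00 with and -0.02 without GATA letters, -0.03 and -0.01 for NF-Y, 0.04 and -0.02 for STAT, and 0.10 and -0.03 for NF-kB. It was 0.18 for the 14 members with ISRE letters and -0.02 for the rest, and none of the 14 was called. Of the 13 calls, 6 held NF-Y and 6 GATA letters in the central window.

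**Figure D5:**
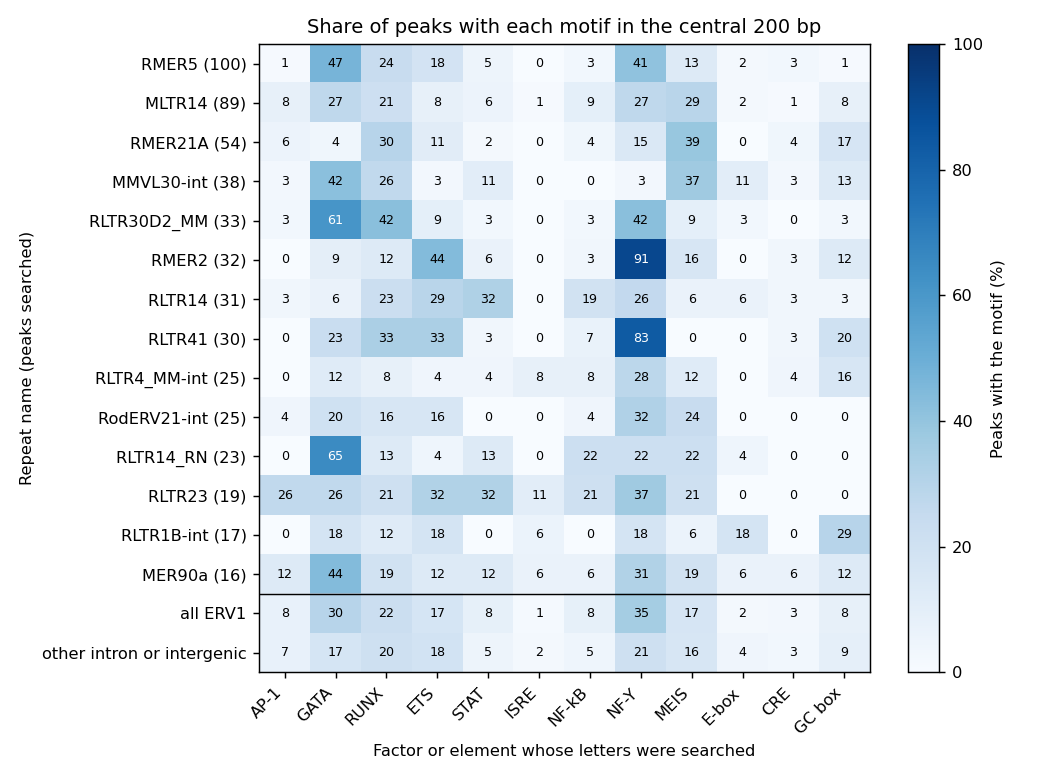
Share of peaks, in percent, with the letters of each motif in the central 200 bp, for the 14 ERV1 names with the most peaks, all 955 ERV1 peaks searched and all other intron and intergenic peaks. The darkest cells are NF-Y in RMER2 (91) and RLTR41 (83) and GATA in RLTR14_RN (65) and RLTR30D2_MM (61).

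For typical interferon-stimulated genes (ISG) a list of 26 was used, which did not hold Ube2l6 or Ly6e. Of all 175929 peaks, 203 lay within 100000 bp of the TSS of such a gene that was their nearest gene. Of the 957 members 3 did, and none of the 3 had an unadjusted p under 0.05. An RLTR30D2_MM LTR 7859 bp from Bst2, which encodes tetherin and holds budding virions at the cell surface, had 11.0, 15.6 and 12.1 tags after oil and 22.2, 10.0 and 17.2 after tamoxifen (log2 0.33 ± 0.50, SE, DESeq2 adjusted p = 0.960). The groups overlapped, and the SE shows that only large changes could have been told from the spread at this peak. A MER57E1 LTR in an intron, 1592 bp from the TSS of Herc6, which encodes the main ISG15 ligase in the mouse, had 40.4 ± 2.49 and 36.0 ± 6.75 tags (SD, n = 3, log2 -0.16, adjusted p = 0.976). An RMER5 LTR upstream of Parp14 had 36.8 ± 2.52 and 33.3 ± 6.09 (SD, n = 3, log2 -0.12, adjusted p = 0.987).

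The genes that silence, restrict or sense such elements were listed apart, and peaks within 3000 bp of their TSS were counted. Of 51 genes 49 had a peak, with 196 peaks in all. None (0) was called by DESeq2 and none by edgeR, 6 had an unadjusted p under 0.05 (3.06%, against 9.02% of all peaks, of which 0.654% were called), and the smallest adjusted p was 0.213, with a median log2 fold change of -0.01. Among the silencers, the TSS peak of Trim28 held 519 ± 17.7 and 512 ± 26.5 tags (SD, n = 3), that of Setdb1 283 ± 23.9 and 295 ± 18.2, and that of Zfp809, the zinc finger protein that recognises the primer binding site of murine leukaemia virus, 591 ± 46.5 and 587 ± 44.8. The peak of Uhrf1, which brings DNA methyltransferase to replicated DNA, held 513 ± 30.5 and 418 ± 56.5 (SD, n = 3, log2 -0.29, DESeq2 adjusted p = 0.229). Among entry receptors, that of Slc7a1, the ecotropic virus receptor, held 545 ± 9.32 and 548 ± 34.7 (SD, n = 3), and that of Xpr1, the xenotropic and polytropic one, 1020.2 ± 75.9 and 1025 ± 63.8 (SD, n = 3). Among the sensors, that of Mavs, the adaptor of the RNA helicases, held 681 ± 15.4 and 682 ± 22.8 (SD, n = 3). The largest change among the TSS peaks of the sensors listed was at Zbp1, with few tags, 17.1 ± 0.0375 and 29.6 ± 9.52 (SD, n = 3, log2 0.78, DESeq2 adjusted p = 0.566). The smallest adjusted p given above, 0.213, was that of a peak of Adar.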

How the data were processed

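ATAC-seq libraries of 3 oil and 3 tamoxifen samples were analysed. The authors mapped reads to mm10 with Bowtie2 at default parameters, called peaks per group with HOMER (findPeaks, minimum distance and size 200), merged the lists and counted tags. The deposited values are estimated counts in steps of 0.5, at most 3 tags per position, without normalisation; a deposited score per peak came from the peak lists. Tool versions are not given in the sources used here.

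Tags were rounded and all peaks fitted with DESeq2 1.42.0 (R 4.3.3; Wald test, Benjamini-Hochberg adjustment), with edgeR 4.0.16 (quasi-likelihood, robust) as alternative. Normalised tags are deposited tags divided by DESeq2 size factors. In data simulated for this comparison with 175929 peaks, DESeq2 recovered 89 of 100 peaks changed by 1.5 on the log2 scale and 98 of 100 changed by 2. The changed peaks had a mean of at least 20 tags, and an assumed spread was the same in all libraries. Recovery at fainter peaks or with a library that stands apart, as tamoxifen 4 does, was not measured. Alternatives covered size factors, GC, filters, edgeR, a replicate block and omission of each library. Library shares and loci were compared by exact permutation tests (SciPy 1.17.1). Of the accessions that name a member's intron, 257 of 259 matched a RefSeq gene (GRCm38.p6, the mm10 assembly), and 92.7% of 168480 TSS distances lay within 2 bp of that annotation.

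Peaks were named by rule: the 8 called members with the smallest adjusted p in each direction whose groups did not overlap, the 5 with the most tags, and the one nearest to a typical ISG with the smallest p; repeat names were the 10 with the most peaks and those that changed. Members, lists and rule were chosen with earlier results of these data known.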

Additional observations from a re-analysis of the deposited data

How the results depend on the processing

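The count of 13 called members was 11 with size factors from total tags, 13 with TMM, 16 with GC-dependent normalisation and 19 with edgeR, of which 12 were among the 13. It was 21 with no limit on the fold, 12 when loci were counted and 8 among members on both peak lists, the last 2 added after the data were seen. Leaving out 1 library gave 5 to 30. For total tags, TMM, GC-dependent normalisation and edgeR the share of all peaks called was not counted. The same holds for each omission other than that of tamoxifen 4. These counts therefore cannot be set against all peaks. Replicate numbers 1 and 4 occur in both groups, but the deviations of libraries with the same number correlated at -0.0437 and 0.0502, so the numbers were not taken to pair samples. The fit with the replicate block held only oil 1 and 4 and tamoxifen 1 and 4, without oil 2 and tamoxifen 3. In it 0 members and 0 repeat names were called, and 288 members had no adjusted p. It therefore does not show what a block would do over all libraries. The count of 5 changed names ranged from 2 to 19 over omissions of 1 library and was 3 without the strongest locus of each name, also added afterwards. The difference in the ERV1 share of tags in peaks, -0.00167 percentage points, was 0.00127 as a share of all mapped tags and -0.0117 to 0.00560 over omissions of 1 library. The median log2 fold change stayed between -0.05 and 0.02 in all settings, and calls among silencing, restriction and sensing genes stayed at 0. Why counts moved was not tested. The median member held 42.2 tags, and pairs of tamoxifen libraries differed over the members by 1.65 to 3.66 times what counting error alone gives (chi-square per degree of freedom). Values at near-identical internal copies depend on how shared reads were placed.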
